A study of Homo sapiens with 30 samples.

Results

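The genes described here encode the proteins of the cytosolic ribosome in A375 cells, an established human melanoma line. They were chosen by symbol alone: every row of the count files named RPS or RPL followed by a number, with an optional A, X or L, together with the stalk genes RPLP0, RPLP1 and RPLP2. The rule took 80 of the 26364 genes in the files, 31 of the small and 49 of the large subunit. Of these, 79 passed the filter on low counts, among 15381 genes tested. RPL3L, the paralog of RPL3 known from heart and skeletal muscle, did not pass, with 52 counts over all libraries and at most 4 in any library.

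Polyadenylated RNA was sequenced from 30 libraries in 10 groups of 3. Cells had been stained with an antibody to integrin β4 (ITGB4), an adhesion receptor, and sorted as positive or negative against a gate set on unstained cells. Migration was through membranes with 5 µm pores and a fibronectin coat. Top5 positive cells had stayed above the membrane for 5 rounds, and Bottom5 negative cells had passed it in 5 rounds. Presorted positive BottomR5 cells were parental cells sorted as positive that then passed the membrane in 5 rounds, and Presorted negative BottomR4 cells were parental cells sorted as negative that passed it in 4 rounds. Bottom10 positive and Bottom10 negative cells had passed the membrane in 10 rounds, and Top10 positive and Top10 negative cells had stayed above it for 10 rounds. Parental positive and Parental negative cells were sorted from the line without migration. All groups come from the same line, and all were sorted. The labels call the 3 libraries of a group biological replicates without saying whether they were separate cultures, so a p-value measures the spread between these libraries, which may be technical.

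Ribosomal proteins are made in matched amounts, and most are needed at 1 place in the small or the large subunit. Their mRNAs are short and abundant. Most begin with a C followed by a run of pyrimidines, the 5′ terminal oligopyrimidine (TOP) motif, through which mTOR signalling and the RNA-binding protein LARP1 govern their translation and stability. Some of the proteins act outside the ribosome, and free RPL5 and RPL11 bind MDM2 and so stabilise p53.

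The motif was searched on the transcribed strand as a C at the annotated transcription start followed by 4 bases that are each C or T, in RefSeq promoter sequences of GRCh38.p14. It stood at an annotated start of 45 of the 63 ribosomal protein genes whose start was used here, which is 71.4%. The share was 4.99% of 27242 other genes and 6.84% of the 11199 other genes that were tested, and 13 of 16 other known TOP mRNAs held it. The starts shown are those of genes described further on, with 20 bases before and 10 from the annotated start. Capitals mark the unbroken pyrimidine run where the start is a C, and the last 3 genes have no C there.
RPL10 (chrX:154398357-154398386, plus strand): atgcgcaggcggaggagcgcCTCTTTCCCT
RPL37A (chr2:216498824-216498853, plus strand): cctgcgcaccgcgtctcttcCTTTCTgggc
RPS21 (chr20:62387083-62387112, plus strand): tgccgggtgactagctgcttCCTTTCTCTC
RPLP1 (chr15:69452798-69452827, plus strand): gctgcgtataggcgcgagagCCCCTTTCCT
RPL21 (chr13:27251538-27251567, plus strand): cgccgcggccccgcctctttCCTTTCggcc
RPS29 (chr14:49598701-49598730, minus strand): ttttcccccgagcgcgcagctggcagcggt
RPS27L (chr15:63157468-63157497, minus strand): cccggaagttgatgccgagcgcagatcgct
RPL10L (chr14:46651772-46651801, minus strand): gcgcgcaggcgtagttaagagagcgcattt
RPL10 and RPS21 keep pyrimidines to the end of the 10 bases shown, whereas RPL37A has 6. RPS29, which varied as widely as RPL37A and RPS21 in these libraries, has no C at its annotated start. A match describes these letters only, and the counts were made on hg19, so the coordinates are those of RefSeq.

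The libraries held 14258919 to 29134945 gene counts. Between 7.80 and 13.3% of reads matched more than 1 place and were counted for no gene, which bears on ribosomal protein genes because they have many processed pseudogenes. The 31 ribosomal protein pseudogenes listed in the files took 0.0035 to 0.0083% of gene counts. Among defining melanoma genes, SOX10 stood at 287 to 1460 CPM (gene counts scaled to a common library size with TMM factors), whereas the pigment genes PMEL, MLANA and TYR averaged under 1 CPM. ITGB4 stood at 168, 96.7 and 35.2 CPM in Parental positive and at 24.6, 33.7 and 25.1 CPM in Parental negative libraries, which do not overlap. In Top10 and in Bottom10 cells the 2 sorts overlapped, and over all groups libraries labelled positive ran from 9.84 to 366 CPM and those labelled negative from 3.72 to 322 CPM, the highest of these in Presorted negative BottomR4 1. Positive and negative are therefore the labels of the sort, which ITGB4 mRNA does not follow in every library. Levels are shares of the RNA sequenced, and a larger share of these mRNAs cannot be told apart from less of the other mRNAs.

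Libraries differed in how gene level depended on transcript length, and 6 of them stood apart. The measure is the slope, over tested genes other than the ribosomal protein genes, of a library's log2 deviation from each gene's mean on log2 transcript length. A negative slope means that short transcripts are overrepresented. It was -0.24 in Top5 positive 1, -0.22 in Presorted negative BottomR4 2, -0.17 in Top5 positive 3 and Bottom10 positive 3, -0.16 in Bottom5 negative 2 and -0.13 in Top10 negative 1, against -0.01 to 0.10 in the other 24. Ribosomal protein transcripts are short, with a median of 687 bases (359 to 1526) over the annotated protein-coding transcripts, against 1830 bases for the other genes tested. The 6 libraries are named beside each result that rests on them.

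Ribosomal protein genes took 6.07 to 18.03% of gene counts, with a median of 7.52% over the 30 libraries. The share was 18.03, 6.71 and 10.0% in the Top5 positive libraries and 7.46, 14.0 and 7.11% in the Presorted negative BottomR4 libraries. It was 7.57, 10.1 and 6.41% in Bottom5 negative and 8.05, 7.26 and 7.11% in Presorted positive BottomR5 libraries. One library in each of the first 3 groups, and a further one in Top5 positive, was far above the rest of its group.
The Bottom10 positive libraries had 7.26, 8.78 and 9.41%, and the Bottom10 negative libraries 7.57, 7.59 and 6.34%. The Top10 positive libraries had 7.62, 8.91 and 6.17%, and the Top10 negative libraries 10.9, 8.82 and 6.23%. Parental positive libraries, at 6.74, 6.60 and 6.07%, and Parental negative libraries, at 8.32, 6.73 and 6.25%, included the lowest value of all. The 6 libraries with a slope below -0.1 held the 6 highest shares, 9.41 to 18.03%, and the other 24 lay between 6.07 and 8.91%. The mean was 11.6 ± 5.83% in Top5 positive and 6.47 ± 0.35% in Parental positive, and the 2 groups overlapped (SD, n = 3 each). Presorted positive BottomR5, at 7.47 ± 0.50%, and Bottom10 positive each lay wholly above Parental positive (SD, n = 3 each).

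**Figure D1:**
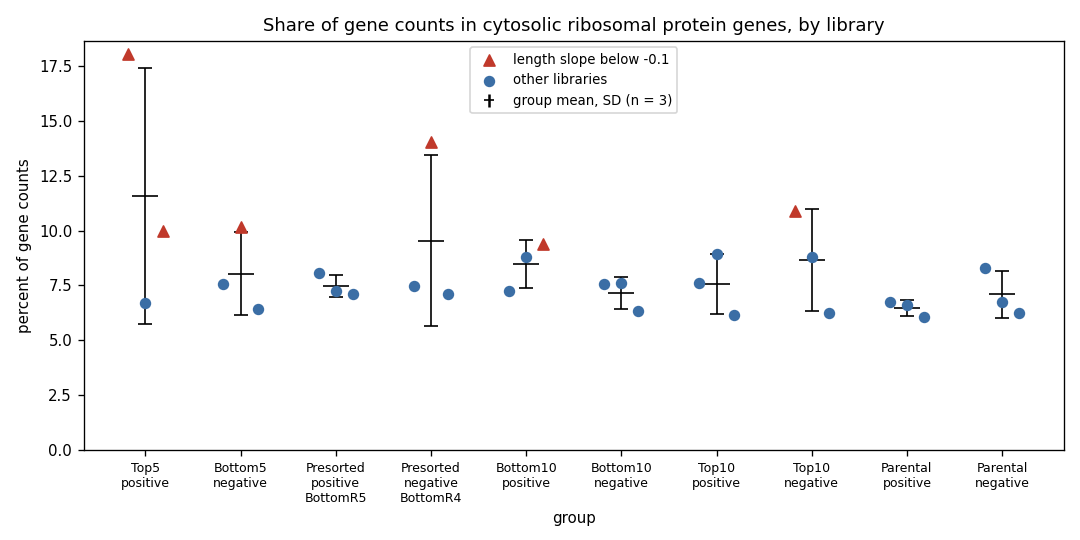
Percent of gene counts (y axis) in the 80 ribosomal protein genes for each library, by group, with the group mean and SD of 3 libraries. Triangles are the 6 libraries with a length slope below -0.1, which hold the 6 highest shares (9.41 to 18.03%), and circles are the other 24.

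The genes moved together from library to library. For each gene the deviation of its log2 level from its own mean was taken, and the median over the 79 tested genes was 1.52 in Top5 positive 1 and 1.31 in Presorted negative BottomR4 2. It was 0.39 to 0.49 in the other 4 libraries with a slope below -0.1, and -0.49 to 0.14 in the remaining 24. For 78 of the 79 genes the highest library was among the 6, and for 68 the 2 highest were Top5 positive 1 and Presorted negative BottomR4 2. The lowest library was a parental one for 65 genes. The shares of all tested genes with these patterns are not given here, so these counts are not read as particular to ribosomal protein genes. Because the 6 libraries lie apart from the rest, the relation of level to length slope is given within each set, as a description. Pearson's r was -0.93 and Spearman's rho -0.49 within the 6. Within the other 24 they were -0.37 and -0.35, and r was -0.22 without the 2 libraries farthest out on the slope. The share of reads matching more than 1 place was 9.16 to 13.3% in the 6 libraries and 7.80 to 9.21% in the others.

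**Figure D2:**
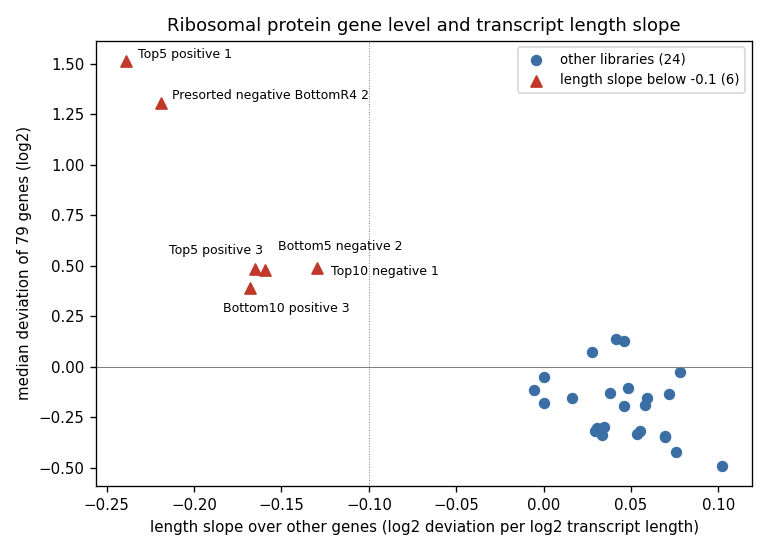
Median log2 deviation of the 79 tested ribosomal protein genes (y axis) against the length slope over the other genes (x axis), 1 point per library. The 6 libraries with a slope below -0.1 (triangles, left of the dotted line) lie at 0.39 to 1.52, and the other 24 at -0.49 to 0.14.

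The deviation of these genes was larger than that of other genes in the same class of annotated length. Among transcripts under 600 bases, the 23 ribosomal protein genes had a median deviation of 1.70 in Top5 positive 1, against 0.17 for 753 other genes. From 600 to 1000 bases the medians were 1.50 for 49 ribosomal protein genes and 0.30 for 2876 others. In the class of 1000 bases or more the 7 ribosomal protein genes had 0.87, and 11234 others had -0.10. That class has no upper limit and its ribosomal protein genes reach at most 1526 bases, so lengths are not matched there. In Presorted negative BottomR4 2 the ribosomal protein genes stood at 1.43, 1.17 and 0.93 in the 3 classes, against 0.16, 0.27 and -0.09 for the other genes. A smooth of deviation on length, fitted over the other genes, came to 0.26 at the ribosomal protein genes in Top5 positive 1 and left 1.26 of their deviation, and in the other 5 libraries with a slope below -0.1 it left between 0.26 and 1.08. What the slope reflects in these libraries was not tested.

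**Figure D3:**
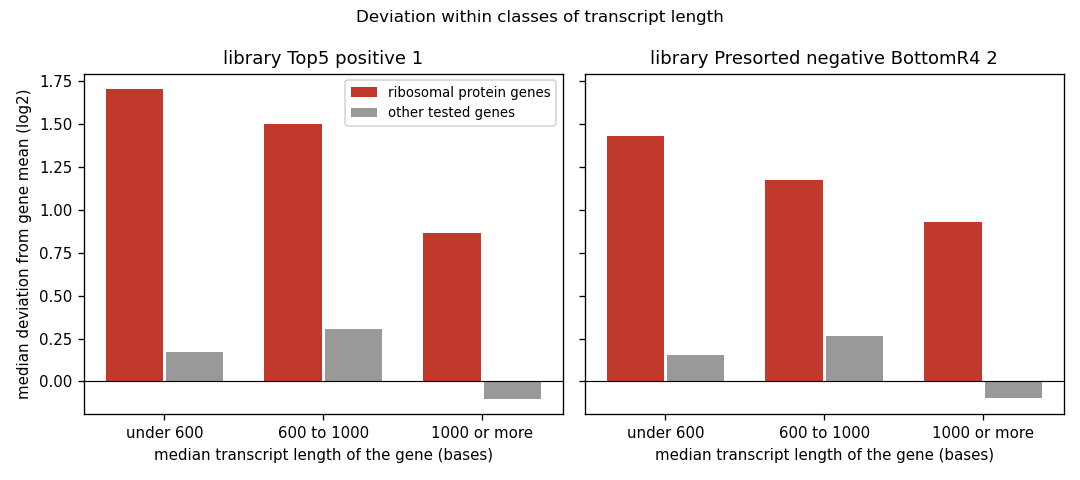
Median log2 deviation from the gene mean (y axis) in 3 classes of annotated transcript length (x axis) in the 2 libraries with the steepest slopes. Ribosomal protein genes (red) lie between 0.87 and 1.70 in every class, and other tested genes in the same class (grey) between -0.10 and 0.30. The longest class has no upper limit, so lengths are not matched within it.

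Other groups of genes differed in how far they followed in the 6 libraries. The 7 tested ribosomal protein genes whose symbols the rule does not take in had median deviations of 0.34 to 1.65, among them RPSA and FAU of the small subunit. The 53 nuclear-encoded subunits of the respiratory chain, which also have short transcripts, had 0.36 to 1.51. Host genes of small nucleolar RNAs, which include known TOP transcripts such as GAS5, had 0.25 to 1.91.
The mitochondrial ribosomal proteins, at 0.22 to 0.85, and the other TOP mRNAs, at 0.17 to 0.57, moved less. The 5 nuclear noncoding RNAs, among them MALAT1 and NEAT1, summed to 7561 CPM in Top5 positive 1, 3676 in Presorted negative BottomR4 2 and 3520 in Bottom5 negative 2. They summed to 2294 CPM in Top5 positive 3, 933 in Top10 negative 1 and 920 in Bottom10 positive 3, and to 718 to 2667 CPM in the other 24 libraries, and their part in the shift was not tested. Genes of mTOR and translational control, among them the TOP regulator LARP1, lay between -0.56 and 0.13. The TOP mRNAs include the elongation factor EEF1A1, at 5271 to 10599 CPM over all libraries, and the translationally controlled protein TPT1, at 1030 to 3894 CPM. Summed markers of melanoma and pigment cells came to 1003 to 3057 CPM in the 6 libraries and 1290 to 5241 CPM in the others, with 7 of 11 markers at 1 CPM or more. Keratinocyte markers summed to 113 to 219 against 65.3 to 165 CPM, fibroblast markers to 9.70 to 31.5 against 8.19 to 29.2, immune markers to 46.9 to 85.6 against 28.6 to 158, and endothelial markers to 3.50 to 6.50 against 4.403 to 23.7. At a mean of 1 CPM or more were 2 of 6 keratinocyte, 4 of 6 fibroblast, 2 of 6 immune and 2 of 5 endothelial markers, and 1 immune marker was at 0 in every library. The part of other cells in the shift was not tested.

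Levels of single genes spanned a wide range, with 74 of the 80 at a mean of 100 CPM or more. Per kilobase of transcript the median was 1372 CPM, with 1386 for small and 1357 for large subunit genes, so the 2 subunits had like levels on that scale. The stalk gene RPLP1 was highest, at 4301 CPM per kilobase. RPS2, whose protein lies at the mRNA entry channel, had 3804, and RPLP0, the base of the stalk, 3356. RPL8, a protein near the peptidyl transferase centre, had 3345, and RPS16 of the small subunit 3231 CPM per kilobase. The lowest were RPL3L, RPL21, RPL10L and RPL39L, at 0.06, 0.57, 1.49 and 17.2 CPM per kilobase. RPL21 encodes a core protein of the ribosome and had only 196 counts in all. Reads that also match pseudogenes or other copies were not counted, so its level is uncertain, and the same can hold in part for any gene here.

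The balance of the subunits held in most libraries. The ratio of summed large to summed small subunit CPM had a median of 1.52. It was 1.25 in Top5 positive 1 and 1.19 in Presorted negative BottomR4 2, the lowest of all, and the highest was 1.56. In those 2 libraries the median deviation was 1.57 and 1.43 for small and 1.50 and 1.12 for large subunit genes. The 3 stalk genes showed unequal sizes of the same shift. RPLP1 stood at 5728, 1376 and 2573 CPM in Top5 positive libraries, against 1386, 1375 and 1204 CPM in Parental positive libraries. RPLP0 stood at 4822, 2336 and 3539 CPM in Top5 positive, against 2501, 2478 and 2140 CPM in Parental positive libraries. Top5 positive 2 lay within the range of the Parental positive libraries for both genes, and the other 2 lay above it.

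Genes differed in how much they varied. Over the 30 libraries the SD of the log2 level was lowest for RPL10, a protein of the late 60S subunit that joins last, at 0.21. It was 0.75 for RPL36A, 0.72 for RPS29, and 0.68 for RPL37A and for RPS21. RPL10 had 1536, 1204 and 1672 CPM in Top5 positive libraries, against 1279, 1269 and 1012 CPM in Parental positive libraries, and these overlap. RPL37A had 4041, 646 and 1252 CPM in the same Top5 positive libraries, against 583, 580 and 555 CPM in Parental positive libraries, which do not overlap. Across the 77 genes at a mean of 5 CPM or more, the gain in the 6 libraries over the other 24 correlated with log2 transcript length at r = -0.41, with GC content at -0.27 and with log2 mean CPM at -0.40. Genes are not independent replicates, and these values describe the 30 libraries only.

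Within the 24 libraries with a slope above -0.1, most genes still moved as one. The correlation of a gene's deviation with the median of the others had a median of 0.91 over the 79 genes, and it was over 0.8 for 62. Such correlations are not given here for other genes, so the shared movement is not read as particular to ribosomal protein genes. RPL32, RPL27A and RPL30 followed the median most closely, with an SD of the departure of 0.04 to 0.05 on the log2 scale over all 30 libraries. RPS26, RPS27L and RPL3 departed most, with 0.65, 0.44 and 0.42, among genes at 5 CPM or more. Correlations were below 0 for 3 genes in the 24 libraries, RPS26 (-0.57), RPS27L (-0.35) and RPS15 (-0.10). RPS26 lies at the mRNA exit channel of the small subunit, and RPL3 is a core protein near the peptidyl transferase centre. Their deviations were opposed in these 24 libraries (r = -0.89, rho = -0.87, and r = -0.88 without the 2 libraries farthest out in RPS26), a pair picked out after their values were seen. The first principal component over all tested genes also varied across these libraries. It was -81.4 in Top10 negative 2, with RPS26 at 144 and RPL3 at 2848 CPM. In Bottom5 negative 3 it was 55.1, with RPS26 at 345 and RPL3 at 1727 CPM. The opposition is therefore not read as particular to these 2 genes, and its origin was not tested.

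RPS26 was 181, 140 and 579 CPM in Bottom10 positive and 220, 151 and 306 CPM in Bottom10 negative libraries. It was 200, 150 and 312 CPM in Top10 positive, 326, 144 and 311 CPM in Top10 negative, and 139, 304 and 314 CPM in Parental negative libraries. RPL3 was 2592, 3133 and 2471 CPM in Bottom10 positive and 2512, 2674 and 1894 CPM in Bottom10 negative libraries. The second library of each Top10 and Bottom10 group was the lowest of its 3 in RPS26. The highest was the first library in Top10 negative and the third in the others. What this spread reflects was not tested. The replicate numbers of these 4 groups pair, as given under the processing.

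Against Parental positive, Top5 positive cells had the widest gap. All 79 genes had a log2 fold change above 0, with a median of 1.13, where the median over all genes tested was 0.02. No ribosomal protein gene passed the threshold (adjusted p under 0.05 in edgeR's quasi-likelihood fit, which called 0.163% of all genes). At an unadjusted p under 0.05, 72 of 79 were higher, against 11.4% of all genes, and DESeq2 called 0. In 30 genes all 3 Top5 positive libraries lay above all 3 Parental positive ones, against 8.69% of all genes. The ribosomal protein genes moved together, so such counts, here and in the comparisons below, are not of independent observations. RPL36A had a log2 fold change of 1.87 ± 0.60 (SE, adjusted p = 0.226 by edgeR), RPS29 1.86 ± 0.56 and RPL37A 1.79 ± 0.54. The lowest value was that of RPL10, 0.31 ± 0.18 (adjusted p = 0.361 by edgeR). The highest, 3.06 ± 0.79 for RPL21 (adjusted p = 0.165 by edgeR), rests on 28, 4 and 7 counts in Top5 positive and 3, 1 and 4 counts in Parental positive libraries.
The result turned on which Top5 positive libraries were used. Without Top5 positive 2, which leaves the 2 libraries with a slope below -0.1, 70 of the 79 genes were called. The share of all genes called in that fit is not given here, so the count cannot be set against it. Without those 2 libraries the median was 0.06 with 0 genes called, on the single library Top5 positive 2, which is then assumed to vary like the other groups. With the length slope of each library as a term in the fit, the median was 0.18 and 0 genes were called. A length offset, taken from a smooth on each gene's transcript length, gave a median of 0.91. The share of these mRNAs in Top5 positive cells cannot be told apart from the length slope of those 2 libraries in this design.

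Presorted negative BottomR4 cells differed from Parental negative in the same direction. The median log2 fold change was 0.76 and 76 of 79 genes were above 0, where the median of all genes was 0.01. With edgeR 0 genes passed the threshold (2.0% of all genes called), 38 were higher at an unadjusted p under 0.05 (11.5% of all genes), and 8 had no overlap of libraries (9.45% of all genes). DESeq2 called 1, the paralog RPL39L. RPL36A, a large subunit protein with a near-identical copy on another chromosome, was highest at 1.59 ± 0.59 (adjusted p = 0.154 by edgeR). It had 106, 716 and 115 CPM in Presorted negative BottomR4, against 127, 99.8 and 84.6 CPM in Parental negative libraries, so 1 library set the value. RPS29 had 1.54 ± 0.56 and RPS21 1.34 ± 0.52. RPL3, at -0.03 ± 0.25, and RPL4, at -0.02 ± 0.27, 2 long mRNAs of the large subunit, had values near 0. The lowest, RPL10L, had 15, 11 and 8 counts in Presorted negative BottomR4 and 17, 6 and 101 counts in Parental negative libraries (log2 fold change -2.04 ± 1.01). Without Presorted negative BottomR4 2 and the other libraries with a slope below -0.1 the median was 0.09, RPL36A had 0.09, and 0 genes were called.

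Presorted positive BottomR5 cells had a smaller difference from Parental positive, in a comparison with none of the 6 libraries. Their length slopes were at most 0.0163, against 0.0293 to 0.102 in Parental positive, so the groups still differed in slope. The median was 0.25 with 76 of 79 genes above 0. In 58 genes all 3 libraries lay above all 3 Parental positive ones, where 7.12% of all genes did so. Because the genes moved together, their shared order of libraries is counted many times in this number. With edgeR 0 genes passed the threshold (0.039% of all genes), and 1 gene, RPL10L, had an unadjusted p under 0.05 (3.01% of all genes), with 19, 7 and 87 counts against 9, 6 and 17. The median stayed at 0.24 without the 6 libraries and was 0.04 with the length slope as a term. RPL13A was lowest, at -0.09 ± 0.42. RPLP0, the base of the stalk, had 0.05 ± 0.26.

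Bottom5 negative against Parental negative gave a median of 0.28 with 78 of 79 genes above 0. With edgeR 0 genes were called (0.858% of all genes), and 1, RPL39L, had an unadjusted p under 0.05 (9.14% of all genes). Without Bottom5 negative 2, the library with a slope below -0.1, the median was 0.03, and with the length slope as a term it was -0.14.

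After 10 rounds the comparisons with parental cells gave no call. Bottom10 positive against Parental positive had a median of 0.48 with 79 of 79 genes above 0, 0 genes called by edgeR (0.247% of all genes) and 4 with an unadjusted p under 0.05 (8.3% of all genes). RPL39L, RPL10 and RPL10L were among them. No overlap of libraries was seen in 57 genes, against 10.4% of all genes, and without the libraries with a slope below -0.1 the median was 0.31, and with the length slope as a term 0.12. RPS26 was lowest in that comparison at 0.08 ± 0.56, and its sign depended on the setting. Bottom10 negative against Parental negative had a median of 0.05 with 62 genes above 0 and 17 below, 0 called (0.325% of all genes) and 2 with an unadjusted p under 0.05, RPL39L higher and RPL10L lower (7.64% of all genes). With the length slope as a term its median was -0.02.
Top10 positive against Parental positive had a median of 0.28 with 76 genes above 0, 0 called (0.384% of all genes) and 1, RPL21, with an unadjusted p under 0.05 (9.05% of all genes). In 18 genes the libraries did not overlap, against 8.6% of all genes, and with the length slope as a term the median was 0.26. RPS27L was lowest there, at -0.48 ± 0.37. Top10 negative against Parental negative had a median of 0.36 with 77 genes above 0, 0 called (0.0455% of all genes) and 0 with an unadjusted p under 0.05 (4.74% of all genes). Without Top10 negative 1 and the other 5 libraries with a slope below -0.1 it was 0.15, and with the length slope as a term 0.0020.

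Between the sides of the membrane after 10 rounds the medians had opposite signs in the 2 sorts, and this depended on the setting. Bottom10 positive against Top10 positive had a median of 0.21 with 78 of 79 genes above 0, 0 called by edgeR (0.943% of all genes) and 0 with an unadjusted p under 0.05 (9.0% of all genes). Bottom10 negative against Top10 negative had a median of -0.33 with 2 of 79 above 0, 0 called (1.33% of all genes) and 0 with an unadjusted p under 0.05 (9.04% of all genes). Without the 6 libraries these medians were 0.03 and -0.12, and with the length offset 0.11 and -0.29, still of opposite sign. With the length slope as a term both were below 0, at -0.18 and -0.06. Of the same-numbered libraries, Bottom10 positive 1 and 2 had median deviations of -0.19 and 0.07, below Top10 positive 1 and 2 at -0.10 and 0.14. Bottom10 positive 3, with a slope below -0.1, had 0.39, against -0.34 in Top10 positive 3. The test of the difference between the 2 sorts gave a median of 0.54, 0 genes called (0.0% of all genes) and 0 with an unadjusted p under 0.05 (2.87% of all genes). Its median was 0.40 with the length offset, 0.15 without the 6 libraries and -0.14 with the length slope as a term.

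The sort itself gave no call in any population. Parental positive against Parental negative had a median of -0.13 with 5 of 79 genes above 0, 0 called (0.0585% of all genes) and 1, RPL10L, lower at an unadjusted p under 0.05 (4.45% of all genes). Top10 positive against Top10 negative had a median of -0.23 with 1 gene above 0, 0 called (0.013% of all genes) and 0 with an unadjusted p under 0.05 (1.71% of all genes). Bottom10 positive against Bottom10 negative had a median of 0.31 with 78 genes above 0, 0 called (0.0% of all genes) and 0 with an unadjusted p under 0.05 (3.57% of all genes), and 11 genes had no overlap (5.48% of all genes). Without the 6 libraries the Top10 and Bottom10 medians were 0.0040 and 0.14, and with the length slope as a term they were 0.05 and -0.09, the reverse of their signs without it.
The difference of the sort between Top10 and Parental cells had a median of -0.10, with 0 genes called (0.0% of all genes) and 0 at an unadjusted p under 0.05 (0.819% of all genes). Its median was 0.13 without the 6 libraries and 0.25 with the length slope as a term, so its sign depended on the setting. Between Bottom10 and Parental cells the median was 0.44 (0.13 with the length slope as a term), with 0 called (0.0% of all genes) and 1, RPL10L, at an unadjusted p under 0.05 (3.01% of all genes). Comparisons that share a parental or a Top10 group share those libraries, and their values are not independent. DESeq2 called 0 ribosomal protein genes in every comparison other than Presorted negative BottomR4 against Parental negative.

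**Figure D4:**
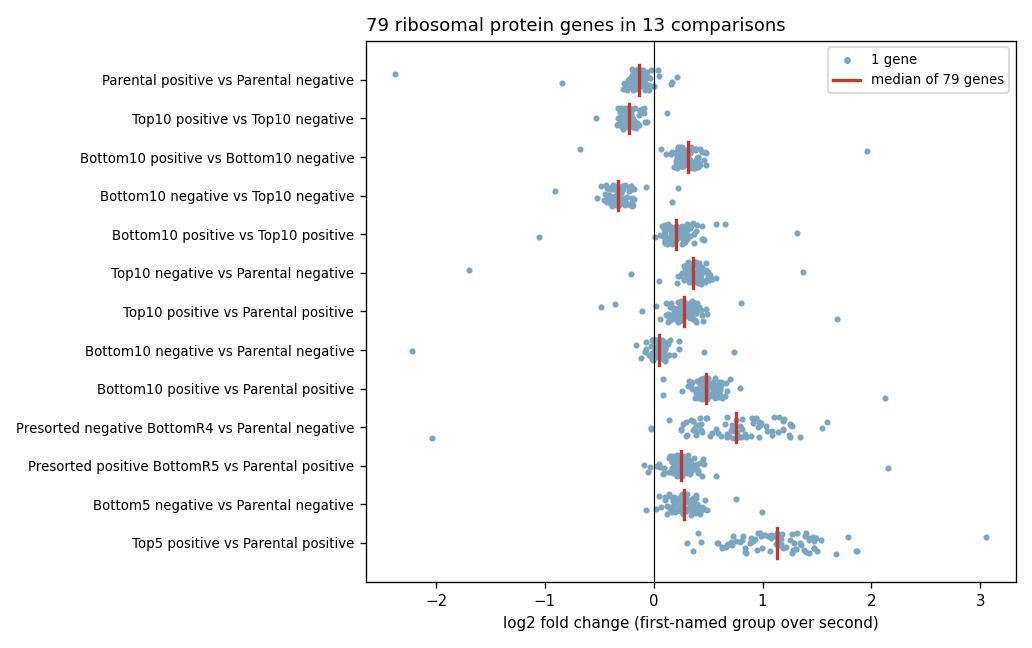
Log2 fold change (x axis) of each of the 79 tested ribosomal protein genes in 13 comparisons (y axis), with the median of the genes as a red bar. Medians run from -0.33 to 1.13, the spread is widest in the 2 comparisons at the medians of 0.76 and 1.13, and no gene passed the threshold in the edgeR fit with all libraries.

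The rule takes in 4 paralogs, RPL3L among them, and the other 3 are described in turn. RPL39L, the autosomal paralog of the X-linked RPL39 whose product lines the exit tunnel, is known chiefly from testis. It stood at 23.5, 7.96 and 15.9 CPM in Top5 positive libraries. In Bottom5 negative it was 14.2, 22.2 and 10.6 CPM, and in Presorted positive BottomR5 15.02, 11.0 and 13.0 CPM. In Presorted negative BottomR4 it was 14.6, 27.1 and 12.6 CPM. These Bottom libraries were all above every parental one.
RPL39L was 12.02, 15.97 and 17.5 CPM in Bottom10 positive and 13.0, 14.1 and 12.3 CPM in Bottom10 negative libraries. It was 9.71, 10.5 and 8.61 CPM in Top10 positive and 16.7, 10.7 and 7.59 CPM in Top10 negative libraries. Parental positive libraries had 9.56, 8.74 and 7.96 CPM and Parental negative libraries 8.89, 6.88 and 7.77 CPM. All 15 Bottom libraries lay at 10.6 to 27.1 CPM and all 6 parental libraries at 6.88 to 9.56 CPM, while the 9 Top libraries ran from 7.59 to 23.5 CPM across both ranges.

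RPL39L was the only gene of the 79 above all 6 Parental libraries in all 15 Bottom libraries, and 19 of the 15381 genes tested (0.124%) had that pattern, a grouping set up after its values were seen. The 12 Bottom libraries without a slope below -0.1 held it at 10.6 to 15.97 CPM. RPL39 itself was 256 to 1096 CPM in the Bottom and 238 to 337 CPM in the Parental libraries, which overlap. The log2 fold change of RPL39L over Parental negative was 1.20 ± 0.34 in Presorted negative BottomR4 (adjusted p = 0.0638 by edgeR, 0.0202 by DESeq2), 1.00 ± 0.34 in Bottom5 negative (adjusted p = 0.228 by edgeR) and 0.74 ± 0.34 in Bottom10 negative (adjusted p = 0.606 by edgeR). Over Parental positive it was 0.79 ± 0.34 in Bottom10 positive (adjusted p = 0.539 by edgeR) and 0.57 ± 0.34 in Presorted positive BottomR5. In the Top groups it was 0.85 ± 0.34 in Top5 positive, 0.13 ± 0.34 in Top10 positive and 0.57 ± 0.34 in Top10 negative. The Top5 positive value was -0.14 without the 6 libraries, on the single library Top5 positive 2. Without Top5 positive 2 it was 1.16 and RPL39L was called (adjusted p = 0.0396 by edgeR). With the length slope as a term it was 0.63 in Presorted negative BottomR4 (adjusted p = 0.112) and 0.57 in Bottom5 negative (adjusted p = 0.188), both by edgeR. The call in Presorted negative BottomR4 thus depended on the tool, and the edgeR fit without replicate 1 or without replicate 3 of that group also gave one (adjusted p = 0.0494 and 0.0459), whereas without replicate 2 the adjusted p was 0.374.

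RPS27L, a paralog of RPS27 known as a p53 target, stood at 159, 77.8 and 137 CPM in Top5 positive libraries and at 106, 104 and 88.9 CPM in Presorted positive BottomR5. In Parental positive libraries it was 75.6, 82.3 and 68.2 CPM. It was 76.1, 235 and 88.0 CPM in Presorted negative BottomR4, against 51.5, 70.8 and 72.7 CPM in Parental negative libraries. Both Presorted groups lay above their parental group in all 3 libraries, and Top5 positive did not. In Top10 positive it was 45.5, 51.1 and 65.2 CPM, below all 3 Parental positive libraries. Of 15 other p53 targets 0 were called in any comparison.

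RPL10L, an intronless copy of RPL10 known from testis, had 5 to 22 counts in 26 libraries. It had 101 in Parental negative 3, 97 in Bottom10 positive 2, 87 in Presorted positive BottomR5 3 and 80 in Bottom5 negative 1, each in a different group. Over the 13 comparisons its fitted log2 fold change was lowest at -2.37 in Parental positive over Parental negative and highest at 2.15 in Presorted positive BottomR5 over Parental positive, and each of these rests on 1 such library. Reads shared with RPL10 cannot be told apart from its own where the copies are identical.

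**Figure D5:**
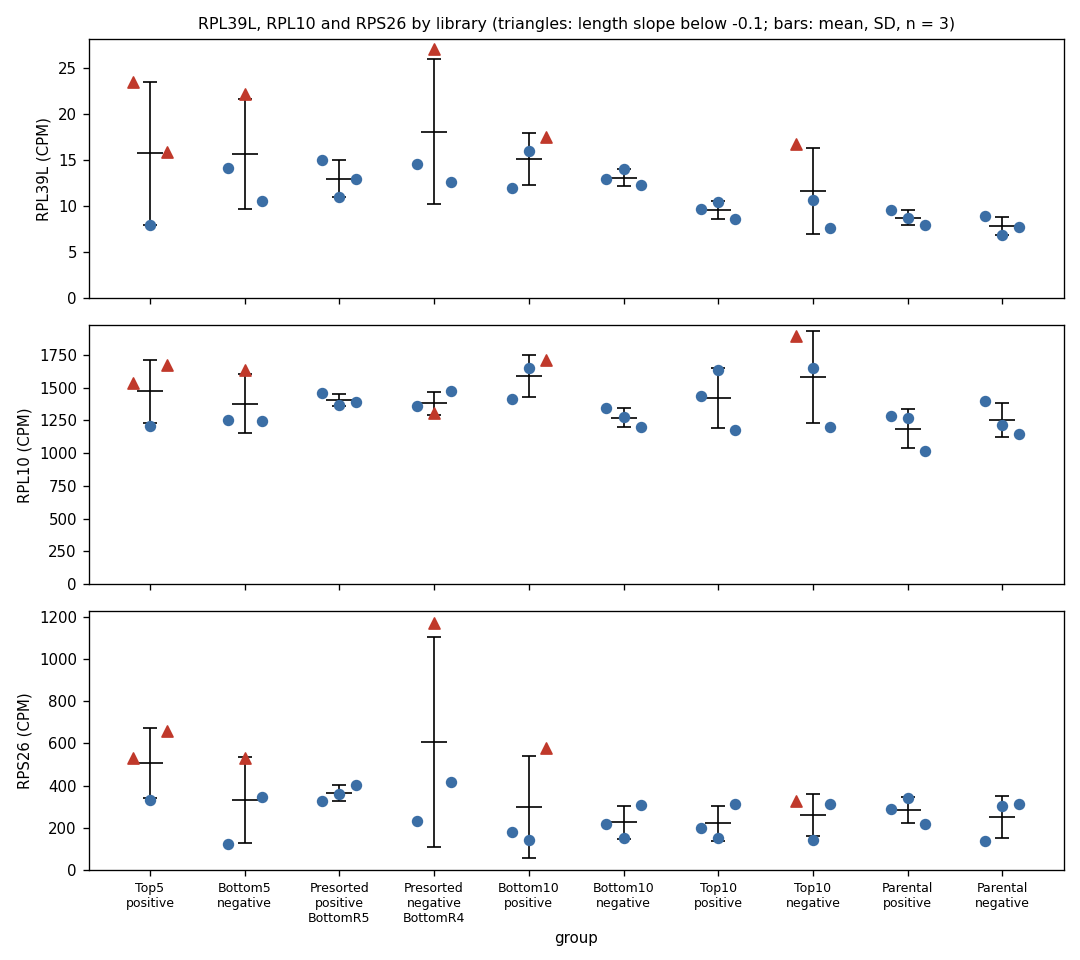
CPM (y axes, linear, from 0) of RPL39L, RPL10 and RPS26 in each library by group, with mean and SD of 3 libraries and triangles for the 6 libraries with a length slope below -0.1. RPL39L is at 10.6 CPM or more in all 15 Bottom libraries and at 9.56 CPM or less in all 6 Parental ones, while RPL10 and RPS26 overlap.

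Among the other lists, 0 genes were called in any of the 13 comparisons by edgeR. In Top5 positive over Parental positive the median log2 fold change was 1.39 for 14 snoRNA host genes, 1.03 for 53 respiratory chain genes, 0.62 for 77 mitochondrial ribosomal proteins, 0.48 for 23 other TOP mRNAs, 0.37 for 17 RNA polymerase I genes and 0.29 for 37 ribosome biogenesis genes. Genes of mTOR and translational control had -0.15. In Presorted positive BottomR5 over Parental positive, which holds none of the 6 libraries, the medians were 0.28 for snoRNA hosts, 0.23 for the respiratory chain, 0.12 for mitochondrial ribosomal proteins, 0.03 for other TOP mRNAs and -0.01 for ribosome biogenesis. There 14 of 23 other TOP mRNAs were above 0, whereas 76 of 79 ribosomal protein genes were.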

How the data were processed

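The deposited files hold raw read counts per gene symbol, 1 file per library. Per the submitters' processing notes, STAR, HTSeq, DESeq and the build hg19 were used. Versions, parameters, strand and annotation are not given in the sources used here. Totals for reads assigned to no gene (22.1 to 31.8% of reads) were left out of library sizes.

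Genes were filtered with filterByExpr (minimum count 10, minimum total 15), scaled with TMM and fitted with edgeR 4.0.16 in R 4.3.3, with all 10 groups in 1 quasi-likelihood fit, and 13 comparisons and 3 interactions were tested across all 15381 genes with Benjamini-Hochberg adjustment at 0.05. Each SE was derived from the log2 fold change and its F value. A prior count of 2 was added for log levels. The fit and the length offset were run on simulated data in which genes varied independently. The simulated length dependence was a straight line on the same transcript lengths that the offset uses. The outcomes are not given here, and no result rests on them. Transcript length is the median over a gene's protein-coding transcripts in GENCODE v29, found for 97.1% of tested genes. With each gene's longest transcript instead, the length slope was counted as moved in 8 libraries and as the same in 22. It was then -0.18 in Top10 negative 1 and 0.12 in Parental negative 1, against -0.13 and 0.08 with the median.

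The alternatives were DESeq2 1.42.0, RLE factors, library totals, TMM factors without the ribosomal protein genes, no filter, a replicate block, only the compared groups, a length offset (lowess, span 0.4) and each library left out. A fit without the 6 libraries with a slope below -0.1, one with the slope as a term and blocks in paired groups were added after seeing the data. Named genes are the 5 highest and 5 lowest per kilobase, 4 paralogs, up to 4 called genes each way and the highest and lowest fold change in each comparison, and the 3 genes departing most and least from the median; others are named as examples. Some genes that the rule names are not reported here. The ribosomal protein genes and all lists were chosen with earlier results of these data known. No replicate pair was a copy (chi-square per degree of freedom at least 11.6). Same-numbered libraries pair, with every correlation of deviations over 0.1, between the Top10 and Bottom10 groups and between Bottom5 negative and Parental negative. The labels do not state what a number shares.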

Additional observations from a re-analysis of the deposited data

Results flagged for a closer look

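The share of reads that matched more than 1 place, which enters no gene count, was above the highest parental library (8.87%) in 9 libraries. It was 13.3% in Top5 positive 1 and 12.6% in Presorted negative BottomR4 2, the 2 libraries with the highest ribosomal protein levels. It was 10.0% in Bottom5 negative 2, 9.68% in Top5 positive 3, 9.32% in Bottom10 positive 3 and 9.16% in Top10 negative 1, the other 4 libraries with a slope below -0.1. The remaining 3 were Bottom5 negative 1 at 9.21%, Bottom10 positive 2 at 9.20% and Presorted positive BottomR5 3 at 8.90%, which also had 80, 97 and 87 counts of RPL10L.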

How the results depend on the processing

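In 16 comparisons and interactions, 0 ribosomal protein genes were called by edgeR, and this held with RLE factors, library totals, TMM factors without these genes, no filter, the length offset, the length slope as a term and without the 6 libraries with a slope below -0.1. With the replicate block the count was also 0 in each comparison where it was fitted. The exceptions were Presorted negative BottomR4 over Parental negative, with 1 gene under DESeq2 and 0 to 1 with each library left out, and Top5 positive over Parental positive, with 0 to 70 when each library was left out. The shares of all genes called in those fits are not given here. Median log2 fold changes depended most on the slope as a term, which is a value of the library and not of the gene, and on the 6 libraries. With the slope as a term they were 0.18 in Top5 positive over Parental positive and 0.04 in Presorted negative BottomR4 over Parental negative. With the length offset, which acts through each gene's transcript length, they were 0.91 and 0.57, against 1.13 and 0.76 in the main fit. With the slope as a term the median changed sign in Bottom10 positive over Top10 positive (-0.18), Bottom10 positive over Bottom10 negative (-0.09), Top10 positive over Top10 negative (0.05), Bottom5 negative (-0.14) and Bottom10 negative (-0.02) over Parental negative, the sort in Top10 less Parental cells (0.25), and the side of the membrane in positive less negative cells (-0.14). With each library left out it ran across 0 in Top10 positive over Top10 negative (-0.41 to 0.0030), Bottom10 negative over Parental negative (-0.02 to 0.19) and the sort in Top10 less Parental cells (-0.28 to 0.13). Library totals gave 0.94 in Top5 positive over Parental positive and 0.53 in Presorted negative BottomR4 over Parental negative. In these 2 comparisons they moved the median of all genes by -0.14 and -0.15.

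The log2 fold changes of some single genes changed sign. RPS26 in Bottom10 positive over Parental positive (0.08) was -0.0793 with the length offset, -0.65 with the slope as a term, -0.0531 with library totals, -0.0668 with the replicate block, -0.84 without the 6 libraries and -0.84 to 0.42 with each library left out. RPL10L in Bottom5 negative over Parental negative (-0.07) was 0.0421 with the slope as a term, 0.14 with the replicate block, 0.28 with the block in these groups only, 0.27 without the 6 libraries and -1.39 to 1.76 with each library left out. RPL39L in Top5 positive over Parental positive (0.85) was -0.14 without the 6 libraries, on the single library Top5 positive 2, and 0.46 to 1.16 with each library left out. RPL10L in Top10 positive over Top10 negative (0.12) was -0.0305 with the slope as a term and -0.11 to 0.39 with each library left out. With each library left out RPL10L also ran from -0.17 to 2.47 in Bottom10 positive over Bottom10 negative, -0.81 to 1.83 in Bottom10 positive over Top10 positive, -2.21 to 0.14 in Top10 negative over Parental negative and -0.0105 to 2.63 in Bottom10 positive over Parental positive, and RPL13A from -0.24 to 0.0046 in Presorted positive BottomR5 over Parental positive. Each RPL10L comparison here other than Top10 positive over Top10 negative holds a library with 80 to 101 counts of it, and for the other sign changes the cause was not tested. With 3 libraries a group, differences smaller than the spread between libraries were not detectable.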
